A study of Mus musculus with 5 samples.

Results

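The transcripts described here belong to 36 genes that mark macrophages and other leukocytes or that serve antigen presentation by MHC class II. They were chosen by name, and each was read from the probe set of the array that carries its symbol alone in the platform annotation, taking the probe set with the highest mean where there were several. A probe set is the group of short oligonucleotides that reports one transcript. Of the 36 genes, 35 had such a probe set, among 18194 genes in all. H2-DMb1 was not analysed here, because its probe sets carry several symbols. The level of each gene was read on each array first, and the TNF-LTBR arrays were then compared with the control arrays.

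The 5 arrays came from cultured cells labelled as aortic endothelial cells, on the C57BL/6J mouse background. The titles name 3 of them control and 2 TNF-LTBR, all at 24 h, and values below follow the replicate numbers of the titles, from control 1 to 3 and then TNF-LTBR 1 and 2. All 5 were grown in one serum medium with heparin and endothelial growth supplement and were fed on the day before stimulation, and no transgene or deletion is named for any of them. TNF is an inflammatory cytokine, and LTBR is the receptor for lymphotoxin and LIGHT. The labels name no agonist and no dose. One treatment text serves all 5 samples; it says that stimuli were dissolved in PBS but describes cells that received PBS alone, so the groups rest on the titles. Whether replicates were independent cultures or mice is not stated, so each p-value reflects the scatter of these arrays alone, and that scatter may be technical.

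Values are array intensities as deposited, and differences are on the scale log2(intensity + 16), on which changes of dim genes appear smaller than they are. Array medians lay between 109.9 and 120.7. Endothelial markers differed in brightness. Eng, which encodes endoglin, lay between 1550.2 and 1858.3 and Kdr, a vascular growth factor receptor, between 255.1 and 364.2. Pecam1, which encodes the junctional protein CD31, lay between 52.6 and 198.9, Cdh5, which encodes VE-cadherin, between 28.7 and 235.6, and Vwf, which encodes von Willebrand factor, between 2.3 and 7.2. The fibroblast collagen transcript Col1a2 lay between 17596.6 and 20691.4, and the smooth muscle actin transcript Acta2 between 2066.4 and 8169.4. One control array, number 3, and one TNF-LTBR array, number 2, stood apart from the others in many transcripts. Tagln, a smooth muscle gene, was at 3307.9, 2335.1 and 72.1 in control and at 1315.1 and 19.4 in TNF-LTBR.

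Macrophages are phagocytes that live in most tissues, the vessel wall included. They depend on signalling through the receptor for colony-stimulating factor 1, they sense immune complexes through Fc receptors that work with small signalling adaptors, and they secrete lysozyme and complement C1q. MHC class II molecules carry peptides from the endosome to the surface of dedicated antigen-presenting cells, together with the invariant chain CD74 and the loading factor H2-DM. Their genes are switched on by the coactivator CIITA, and interferon-gamma can induce it in other cells, endothelium included. In RNA from a whole culture, fewer cells of a type and less RNA per cell cannot be told apart.

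Many macrophage transcripts were bright on 3 arrays and dim on the other two, and this order cut across the treatment titles. Control arrays 1 and 2 and TNF-LTBR array 1 held the high values, whereas control array 3 and TNF-LTBR array 2 held the low ones. The last-named arrays were the 2 lowest of the 5 for 25 of the 35 members (71.4%), against 21.0% of all 18194 genes. In 12 members (34.3%), against 1.31% of all genes, every other array exceeded them by at least 1 on the log2 scale. Those 12 were C1qa, C1qb, C1qc, Ctss, Fcer1g, Fcgr3, H2-Ab1, Lyz1, Lyz2, Ptprc, Tyrobp and Wfdc17. These orders were read from the arrays themselves, so they are a description without a test. Each treatment group holds 1 of the low arrays. Mpeg1 was the 1 member for which the same arrays were the 2 highest, which held for 18.9% of all genes.

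**Figure D1:**
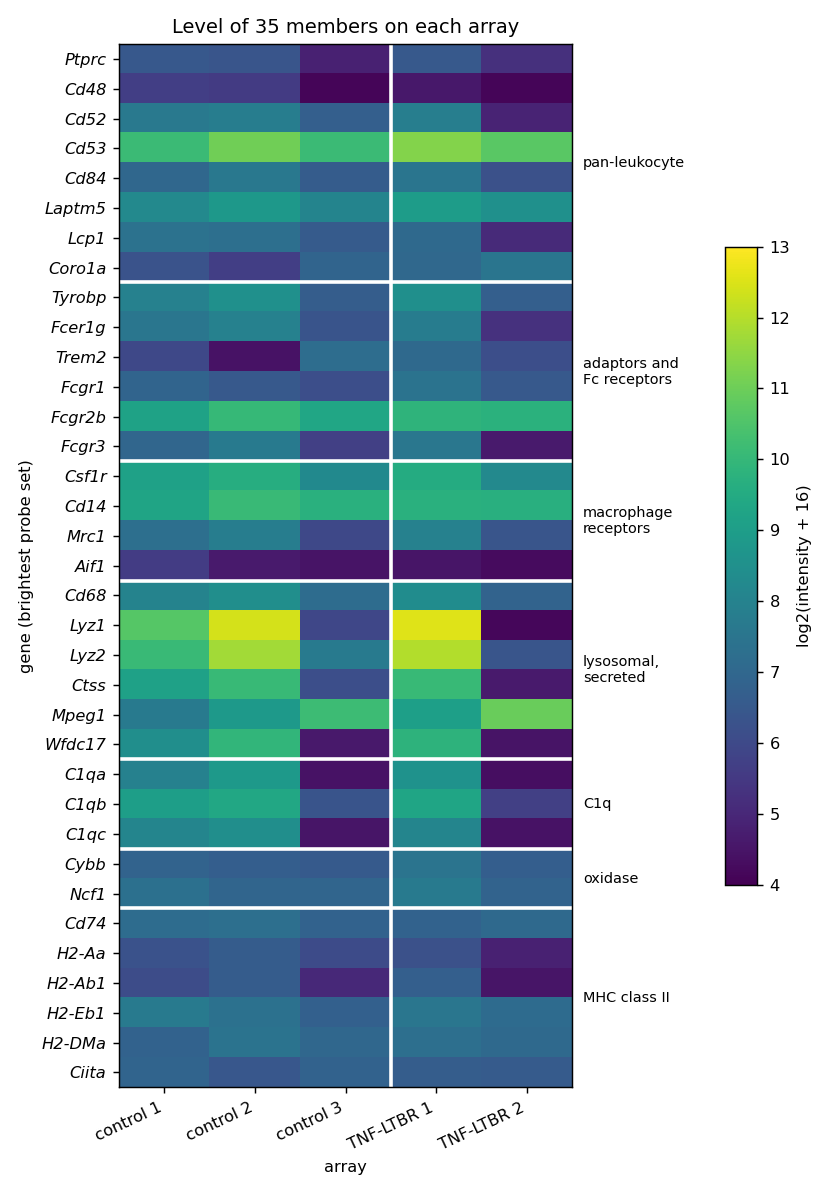
Level of the 35 measured members on each array, as log2(intensity + 16) of the brightest probe set, with genes grouped by role (white horizontal lines) and control arrays left of the white vertical line. Lysozyme, C1q, Ctss and Wfdc17 are dark on control 3 and TNF-LTBR 2, Mpeg1 is brightest there, and Cd74, Ciita, H2-DMa and H2-Eb1 differ little between arrays.

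Lysosomal and secreted products of phagocytes spread most widely. Lyz2, which encodes the lysozyme of macrophages and granulocytes, had intensities of 1088.5, 3409.2 and 186.3 in control and of 3933.6 and 66.5 in TNF-LTBR. Its highest array was thus 47.9 times its lowest on the scale with 16 added, and each group held a high and a low value. Wfdc17, a secreted protein with a whey acidic protein domain made by activated macrophages, was at 333.8, 959.7 and 8.5 in control and at 896.8 and 6.5 in TNF-LTBR. Ctss, which encodes the protease cathepsin S that trims the invariant chain, was at 551.2, 1052.8 and 55.3 in control and at 1060.0 and 9.0 in TNF-LTBR. For both genes each group again held a high and a low value. Cd68, a lysosomal glycoprotein of phagocytes, followed the same order over a smaller range, at 244.1, 331.3 and 128.3 in control and at 313.4 and 101.9 in TNF-LTBR.

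Among the high arrays, TNF-LTBR array 1 lay close to control array 2, and control array 1 lay lower in several of these genes. The intensity of TNF-LTBR array 1 was 1.15 times that of control array 2 for Lyz2, 0.934 times for Wfdc17 and 1.01 times for Ctss. Control array 2 was 3.13 times control array 1 for Lyz2 and 2.88 times for Wfdc17, 1.91 times for Ctss, 1.88 times for C1qa, 1.31 times for C1qc and 1.29 times for C1qb. Between the low arrays, TNF-LTBR array 2 was at 0.357 of control array 3 for Lyz2, and for Ctss it was lower too, at a level near the bottom of the scale where no ratio is given. Each of these ratios sets 1 array against 1 array and has no replicate check.

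Mpeg1, which encodes the pore-forming protein perforin-2 of phagocytes, ran the other way. In control it was at 189.4, 455.9 and 1131.2, and in TNF-LTBR at 521.9 and 1937.0. TNF-LTBR array 1 lay below control array 3, so the groups overlapped. The difference was 1.09 ± 0.88 (SE) on the log2 scale, with an adjusted p of 0.999 in limma. Leaving out TNF-LTBR replicate 2 gave 0.16, and leaving out TNF-LTBR replicate 1 gave 2.02.

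**Figure D2:**
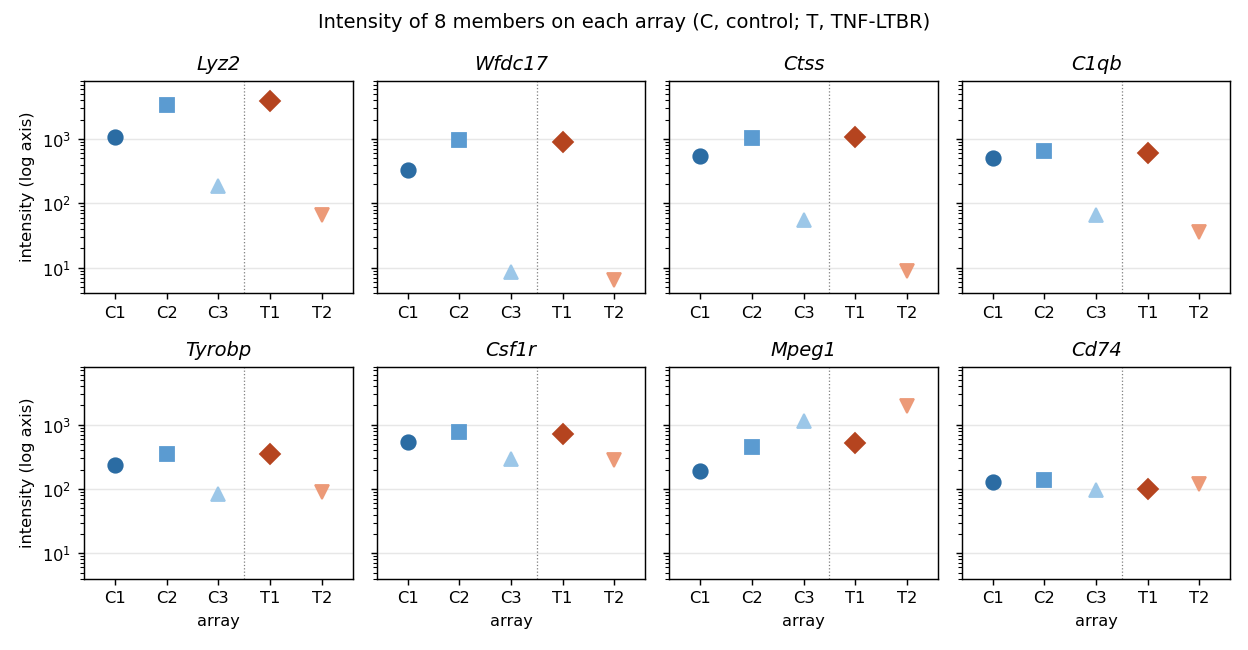
Intensity (log axis) of 8 members on the 3 control arrays (C1 to C3) and the 2 TNF-LTBR arrays (T1, T2), 1 point per array. Lyz2, Wfdc17, Ctss, C1qb, Tyrobp and Csf1r are lowest on C3 and T2, Mpeg1 is highest there at 1131.2 and 1937.0, and Cd74 stays between 97.1 and 138.1.

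The lysozyme genes Lyz1 and Lyz2 are close copies that lie next to each other, and their probe sets need separate reading. The probe set that represented Lyz1 carries the suffix _x_at, which marks possible cross-hybridisation with other transcripts. It was at 1547.1, 5505.1 and 44.3 in control and at 6014.0 and 1.7 in TNF-LTBR, and a second probe set of that kind had the same order. The third Lyz1 probe set has no such suffix, and it stayed at 98.4, 88.6 and 68.2 in control and at 130.3 and 69.0 in TNF-LTBR. The wide range of Lyz1 was thus seen on its shared-sequence probe sets and not on the other one, and how much Lyz2 contributed to them was not tested.

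**Figure D3:**
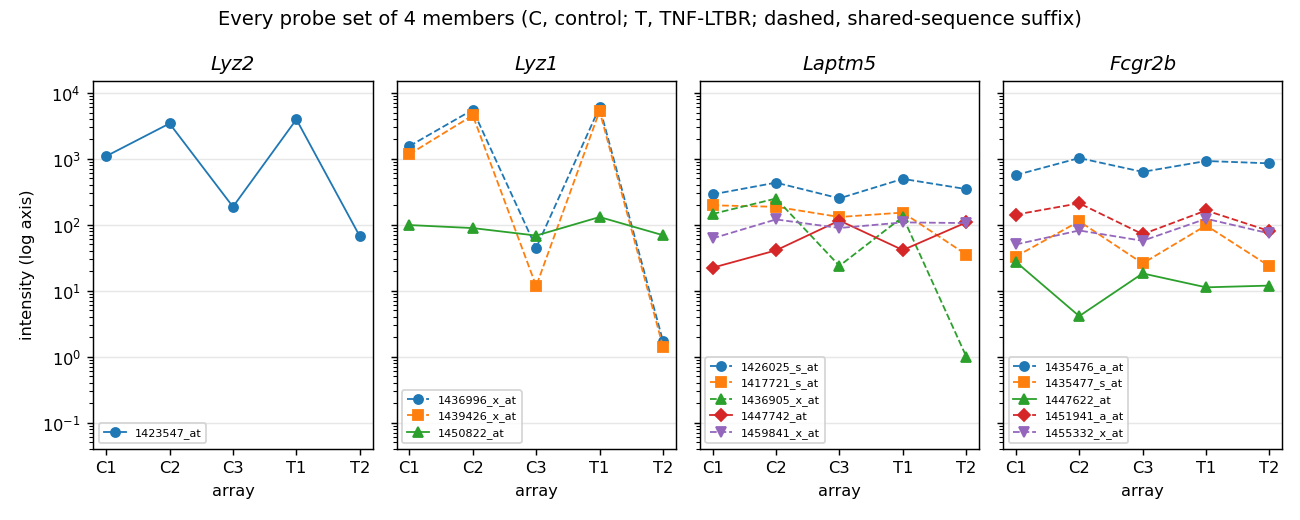
Intensity (log axis) of every single-symbol probe set of Lyz2, Lyz1, Laptm5 and Fcgr2b on each array (C, control; T, TNF-LTBR), with lines joining the points of 1 probe set and dashed lines for probe sets with a shared-sequence suffix. The Lyz1 probe set without such a suffix stays between 68.2 and 130.3 where the others span from 1.4 to 6014.0.

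The 3 subunits of C1q, the molecule that starts the classical complement pathway, shared their high and low arrays. C1qa had intensities of 232.9, 437.2 and 5.8 in control and of 370.1 and 4.2 in TNF-LTBR. C1qb was at 509.4, 655.3 and 65.4 in control and at 606.4 and 35.9 in TNF-LTBR. C1qc was at 256.1, 336.0 and 7.0 in control and at 257.8 and 5.6 in TNF-LTBR. In all 3 subunits control array 2 was highest, and control array 3 and TNF-LTBR array 2 were too dim to be ordered between themselves. The other 2 probe sets of C1qb had the same 3 high arrays and the same low ones, at 394.5, 577.6, 67.2, 553.3 and 17.0 and at 335.9, 480.0, 12.5, 429.7 and 21.0.

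Signalling adaptors and Fc receptors split into those that followed this order and those that did not. Tyrobp, which encodes the adaptor DAP12, was at 234.4, 352.3 and 84.9 in control and at 344.2 and 91.1 in TNF-LTBR. Fcer1g, which encodes the common gamma chain of Fc receptors, was at 168.5, 232.8 and 64.2 in control and at 202.4 and 23.0 in TNF-LTBR, and its partner receptor Fcgr3 was at 108.4, 191.6 and 36.1 and at 172.4 and 9.0. Control array 3 and TNF-LTBR array 2 were the lowest for each of these genes. Fcgr1, the high-affinity receptor for IgG, had the same low arrays within a narrow range of 54.8 to 155.3. Trem2, a lipid-sensing receptor that signals through DAP12, did not share the order, at 46.4, 5.8 and 132.3 in control and at 118.6 and 56.1 in TNF-LTBR.

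Fcgr2b, the inhibitory receptor for IgG, gave different pictures on different probe sets. Its brightest probe set had a narrow range, at 563.0, 1020.8 and 629.7 in control and at 920.0 and 848.2 in TNF-LTBR. The next one was lowest on control array 3 and TNF-LTBR array 2, at 71.6 and 79.8, against 141.6, 210.4 and 163.8 on the other 3. Both carry a shared-sequence suffix. The difference between groups on the brightest probe set was 0.30 ± 0.28 (SE) with an adjusted p of 0.999 in limma.

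Receptors typical of tissue macrophages shared the order to a lesser degree. Csf1r, the receptor on which macrophage survival depends, was at 547.1, 757.3 and 295.7 in control and at 718.8 and 285.3 in TNF-LTBR, and control array 3 and TNF-LTBR array 2 were lowest on both further probe sets too. Mrc1, the mannose receptor, was at 140.6, 212.2 and 46.2 in control and at 234.4 and 66.7 in TNF-LTBR. Cd14, the co-receptor for bacterial lipopolysaccharide, lay apart from this order at 600.2, 1081.1 and 828.8 in control and at 831.6 and 797.8 in TNF-LTBR, so both TNF-LTBR arrays lay inside the range of the controls. Aif1, which encodes the microglia and macrophage protein IBA1, was under the brightness filter, with no array above 33.0.

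Pan-leukocyte genes were mostly dim, and the brighter ones did not share the order. Ptprc, which encodes the leukocyte phosphatase CD45, was at 72.5, 66.5 and 12.3 in control and at 75.2 and 21.8 in TNF-LTBR, and a second probe set, at 37.4, 29.9 and 33.8 and at 72.4 and 36.6, did not share that order. Cd52, a small glycoprotein of the leukocyte surface, was at 183.5, 207.8 and 90.7 in control and at 214.0 and 13.7 in TNF-LTBR, and Lcp1, the actin bundler L-plastin, was at 152.3, 139.1 and 79.6 and at 118.5 and 17.3. On the brightest probe sets of these genes the same 2 arrays were again the lowest. The SLAM family members Cd48 and Cd84 had them lowest too, within ranges of 1.6 to 34.7 and 58.4 to 178.4. A dimmer Cd84 probe set did not, and had TNF-LTBR above control, at 42.3, 45.7 and 29.3 and at 97.5 and 55.8.

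Cd53, a tetraspanin of leukocytes, was higher on the TNF-LTBR arrays on average without separating the groups. It was at 1110.3, 2126.1 and 1104.0 in control and at 2533.8 and 1659.1 in TNF-LTBR, while a dim second probe set was at 43.2, 99.6 and 19.1 and at 124.9 and 74.6. Its difference of 0.57 ± 0.37 (SE) had the smallest unadjusted p of the tested members, 0.179, and an adjusted p of 0.999 in limma. Laptm5, a lysosomal protein of leukocytes, was at 287.1, 432.5 and 250 in control and at 493.5 and 345.2 in TNF-LTBR on its brightest probe set. Another Laptm5 probe set was at 145.0, 248.3 and 23.7 and at 131.2 and 1.0, so its probe sets disagreed. Coro1a, the actin regulator coronin 1A, was the 1 member whose groups did not overlap on the brightest probe set. It was at 62.7, 35.4 and 104.0 in control and at 116.3 and 163.5 in TNF-LTBR. That made 1 of 35 members with TNF-LTBR wholly above control, against 8.60% of all genes, and 0 of 35 wholly below, against 6.38%. Of its other probe sets, 1 also separated the groups and 1 did not, at 32.3, 52.4 and 4.5 and at 5.1 and 43.0. Coro1a was below the brightness filter, and its adjusted p in the limma fit without a filter was 1.

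The phagocyte NADPH oxidase was represented by Cybb, its catalytic subunit, and Ncf1, its cytosolic organiser. Cybb was at 100.7, 87.5 and 77.4 in control and at 162.3 and 86.8 in TNF-LTBR. Ncf1 was at 143.5, 106.5 and 104.7 in control and at 192.2 and 101.8 in TNF-LTBR. Both were highest on TNF-LTBR array 1, and for both the other TNF-LTBR array lay within or below the controls on these probe sets. A second Cybb probe set separated the groups, at 29.2, 97.8 and 52.6 in control and at 160.9 and 139.6 in TNF-LTBR, and the remaining one did not, at 95.0, 98.3 and 47.8 and at 175.9 and 85.1. Cyba, the membrane partner of Cybb that many other cells make too, was at 5020.3, 5005.3 and 2593.0 and at 5360.1 and 3865.6, again with control array 3 and TNF-LTBR array 2 lowest.

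MHC class II genes were dim and differed among themselves. Control array 3 and TNF-LTBR array 2 were the 2 lowest arrays for H2-Aa, H2-Ab1 and H2-Eb1 (3 of 6), and not for Cd74, Ciita and H2-DMa. The median over their 6 measured members was an intensity of 99.5, 110.2 and 94.2 in control and of 94.6 and 99.4 in TNF-LTBR. Cd74, which encodes the invariant chain, was at 127.9, 138.1 and 97.1 in control and at 98.7 and 119.0 in TNF-LTBR, so its highest array was 1.36 times its lowest on the scale with 16 added. Ciita, the coactivator of the whole set, was at 102.3, 70.2 and 97.0 in control and at 83.9 and 79.8 in TNF-LTBR. H2-DMa, a chain of the loading factor, was at 96.6, 155.2 and 110.9 and at 141.5 and 120.2. On these probe sets the TNF-LTBR arrays lay inside the range of the controls in each of the 3 genes. A dimmer H2-DMa probe set with a shared-sequence suffix had TNF-LTBR below control, at 61.2, 45.1 and 46.6 and at 42.7 and 44.1.

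Of the chains of the class II molecules themselves, H2-Eb1, the E beta chain, was the 1 gene past the brightness filter, at 193.1, 146.0 and 91.3 in control and at 171.6 and 125.1 in TNF-LTBR, a difference of 0.08 ± 0.36 (SE) with an adjusted p of 0.999 in limma. Leaving out control replicate 3 gave -0.18, and leaving out TNF-LTBR replicate 1 gave -0.12. H2-Ab1, the A beta chain, was at 52.8, 82.3 and 16.8 in control and at 90.5 and 6.6 in TNF-LTBR, and a second probe set was at 63.0, 38.1 and 9.2 and at 101.6 and 18.6 and the remaining one did not pass 14.2. H2-Aa, the A alpha chain, was at 59.9, 81.9 and 49.7 and at 59.1 and 12.3. The highest array was 4.71 times the lowest for H2-Ab1 and 3.46 times for H2-Aa on the scale with 16 added. The same value was 2.57 for Csf1r, 2.95 for Cd68, 3.65 for Tyrobp, 8.3 for Fcgr3 and 47.9 for Lyz2. These 2 class II chains thus lay within the range of the phagocyte genes, and their lows of 6.6 and 12.3 were near the bottom of the scale. On their brightest probe sets H2-Ab1 and H2-Aa thus had their lowest values on the arrays that were lowest for the phagocyte genes. For H2-Aa, control array 3 at 49.7 lay near TNF-LTBR array 1 at 59.1. These intensities were below the filter, where the added 16 weighs on the difference.

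Promoter sequences are shown for 4 genes that were low together on control array 3 and TNF-LTBR array 2 and for 2 class II chains, to set side by side the elements by which these gene sets are known. The 200 bases before the annotated start were taken from RefSeq on GRCm38.p6, where 28 of the 36 members had a searched window. Csf1r, Tyrobp, Cd14, H2-Ab1, C1qa, Cd52, Cd74 and Ciita had no searched window. The member search left out a chromosome that the search over all windows kept, so a missing window need not mean a missing RefSeq entry. Capitals mark matches, on either strand, to the PU box GAGGAA, a site of the myeloid factor PU.1, in the first 4, and to the Y box GATTGG, bound by NF-Y, or the X box, spelled AGNAAC followed at once by NGATG and bound by the RFX complex, in the last 2. All 3 motifs were searched in every promoter, no printed matches overlapped, and the motif letters were chosen with the sequences in view. The windows are chr3:95526586-95526785 on the plus strand for Ctss, chr11:83703856-83704055 on the plus strand for Wfdc17, chr4:136886201-136886400 on the minus strand for C1qb and chr4:136892915-136893114 on the minus strand for C1qc. For the class II chains they are chr17:34287824-34288023 on the minus strand for H2-Aa and chr17:34305667-34305866 on the plus strand for H2-Eb1.
Ctss: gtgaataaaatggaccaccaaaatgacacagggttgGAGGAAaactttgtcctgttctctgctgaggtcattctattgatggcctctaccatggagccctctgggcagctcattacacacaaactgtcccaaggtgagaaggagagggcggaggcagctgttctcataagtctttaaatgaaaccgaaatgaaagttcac
Wfdc17: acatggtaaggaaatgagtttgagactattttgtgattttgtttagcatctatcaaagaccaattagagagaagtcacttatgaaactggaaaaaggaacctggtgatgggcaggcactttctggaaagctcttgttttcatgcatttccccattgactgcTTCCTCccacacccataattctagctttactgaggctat
C1qb: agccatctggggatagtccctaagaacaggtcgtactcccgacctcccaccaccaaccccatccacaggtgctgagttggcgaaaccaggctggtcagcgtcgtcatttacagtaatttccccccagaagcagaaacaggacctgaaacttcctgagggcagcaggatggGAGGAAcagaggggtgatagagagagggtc
C1qc: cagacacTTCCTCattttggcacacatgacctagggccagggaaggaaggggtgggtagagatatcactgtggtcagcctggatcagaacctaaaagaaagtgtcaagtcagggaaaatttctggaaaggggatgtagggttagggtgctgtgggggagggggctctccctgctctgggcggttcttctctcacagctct
H2-Aa: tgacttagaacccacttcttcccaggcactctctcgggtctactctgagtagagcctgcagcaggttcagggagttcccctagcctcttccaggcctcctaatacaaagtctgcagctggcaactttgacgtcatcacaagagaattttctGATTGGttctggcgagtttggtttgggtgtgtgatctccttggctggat
H2-Eb1: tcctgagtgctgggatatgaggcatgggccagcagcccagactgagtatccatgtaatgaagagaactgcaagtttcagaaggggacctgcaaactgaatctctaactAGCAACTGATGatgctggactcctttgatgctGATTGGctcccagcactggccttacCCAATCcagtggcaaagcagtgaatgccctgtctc

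Some genes have several start sites and so several windows, and the share over all windows is per window. The PU box letters stood in 13 of the 28 windows of the 24 macrophage and leukocyte members with a searched window. Those 13 belong to 12 genes. The same letters stood in 19.0% of all 32851 windows. For each motif the letters were chosen with the sequences in view, so its share beside that of all windows is a description without a test. In Wfdc17 and C1qb the match ended 34 and 25 bases before the start, and in Ctss and C1qc 159 and 188 bases before it. Lyz2, Lyz1 and Fcer1g, also among the members with the gap of at least 1, had no match to these letters in this window. The 4 genes shown thus do not stand for all members with that order. The Y box letters stood in 4 of the 5 windows of the 4 class II members with a searched window, H2-DMb1 included. One of the H2-DMa windows lacked them. They stood in 2 of the 28 windows of the other members and in 12.9% of all windows. The X box letters stood in H2-Eb1 and H2-DMb1 and in 0.167% of all windows, and H2-Eb1 held them 82 to 92 bases before its start, upstream of a Y box at 55 to 60 bases. A match is a description of the sequence and not of binding.

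The proteins that act with MHC class II were given by a list of 17 genes, of which 15 had a probe set and 11 passed the brightness filter. None of the 11 was called in the limma fit over all genes. Control array 3 and TNF-LTBR array 2 were the 2 lowest arrays for 0 of the 15. The brightest members were the endosomal proteases Ctsb, at 15784.4 to 18026.7, Ctsl, at 14297.2 to 15782.1, and Lgmn, at 6044.2 to 8897.4. Ifi30, a thiol reductase that opens disulphide bonds of antigens, was at 1404.2, 1536.4 and 1466.5 in control and at 1760.8 and 2000.9 in TNF-LTBR. Its groups did not overlap, and its unadjusted p was 0.0439 with an adjusted p of 0.999 in limma, where 1.76% of the genes tested had an unadjusted p under 0.05. Rfxank, a subunit of the RFX complex named with its values in view, was separated in the other direction, at 418.2, 353.1 and 385.7 and at 328.4 and 348.5. That made 1 of 11 above and 1 of 11 below, against 6.94% and 6.34% of the genes tested.

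Further macrophage genes were listed to see whether the order held beyond the members. Of 24 genes, 22 were measured and 9 passed the filter, with 0 called in limma. Control array 3 and TNF-LTBR array 2 were the 2 lowest for 9 of the 22 (40.9%), against the 21.0% of all genes given above. Adgre1, which encodes the macrophage protein F4/80 and was picked with its values in view, was at 408.6, 360.9 and 159.0 in control and at 591.5 and 96.2 in TNF-LTBR. Ms4a7, a membrane protein of tissue macrophages chosen in the same way, was at 218.4, 340.6 and 112.2 and at 312.6 and 99.9. Adgre1 alone of the 22 had the gap of at least 1 on the log2 scale (4.55%). Control array 3 and TNF-LTBR array 2 were neither the 2 lowest nor the 2 highest for 11 of the 22. Itgam, Spi1, Irf8, Cx3cr1 and Siglec1 were among those 11, all below the filter and named with their values in view. The brightest genes of the list did not all share the order. Gpnmb, a lysosomal glycoprotein, was highest on the same 2 arrays, at 8464.0 and 9279.4, against 3011.1 to 3890.8 on the others. Lgals3, which encodes galectin 3, was at 3863.9, 3237.1 and 5234.1 in control and at 4717.7 and 11693.5 in TNF-LTBR, and Mertk, a receptor for the uptake of dying cells, was at 2497.2, 901.4 and 1143.5 and at 747.7 and 828.8. Mertk was thus below all controls on both TNF-LTBR arrays, with an unadjusted p of 0.135 and an adjusted p of 0.999 in limma. Of the 9 genes past the filter, 1 lay wholly below control and 1 wholly above, against 6.34% and 6.94% of the genes tested. Over the 22 measured genes the counts were 3 below and 2 above, against 6.38% and 8.60% of all genes.

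Genes of other blood cells were mostly dim. The lymphocyte list had 12 of 14 genes measured, and its summed intensity was 791 to 994 in control and 779 to 1135 in TNF-LTBR. Its brightest gene was Cd8a, on a probe set with a shared-sequence suffix, at 308.8, 460.0 and 298.4 and at 459.7 and 284.3. The T cell receptor component Cd3e did not pass 53.7 and the B cell receptor component Cd79b did not pass 51.3 on any array. Cd79a was brighter, at 62.1 to 104.7, and these genes were named with their values in view. The B cell genes Ms4a1, Cd22 and Blk lay at 90.0 to 150.2, 54.7 to 119.8 and 96.8 to 162.1. The dendritic cell list had 7 of 8 genes measured, with summed intensities of 531 to 603 in control and 529 to 649 in TNF-LTBR, led by Zbtb46 at 197.0 to 287.7, with Flt3 at 87.0 to 161.3, Cd209a at 32.4 to 83.8 and Xcr1 at 37.0 to 70.1. Granulocyte and mast cell genes, 7 of 8 measured, summed to 299 to 576 in control and 371 to 489 in TNF-LTBR. S100a9 was at 7.3 or less on every array and S100a8 at 9.1 to 48.8, both also named in that way. Kit lay at 68.6 to 200, Cpa3 at 42.8 to 136.8, Mpo at 84.4 to 138.7 and Elane at 23.5 to 96.1. Control array 3 and TNF-LTBR array 2 were the 2 lowest for 4 of the 12 lymphocyte genes (33.3%) and 2 of the 7 dendritic cell genes (28.6%). They were so for 3 of the 7 granulocyte and mast cell genes (42.9%), beside 40.9% of the further macrophage genes and 21.0% of all genes. Of these 3 lists 3 genes passed the filter, and 0 were called in limma.

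Markers of other cell types also differed between the arrays, and their part in the pattern was not tested. The endothelial list, 12 of 12 measured, had a median intensity of 209.9, 142.2 and 73.4 in control and of 146.5 and 63.1 in TNF-LTBR. Control array 3 and TNF-LTBR array 2 were the 2 lowest for 8 of the 12 (66.7%), against 71.4% of the members and 21.0% of all genes. The gap of at least 1 on the log2 scale was present in 2 of the 12 (16.7%), against 34.3% of the members and 1.31% of all genes. Emcn, the endothelial sialomucin endomucin, was at 220.9, 660.8 and 81.4 and at 477.3 and 78.4, with the same low arrays as Lyz2. The brightest genes of that list did not all follow. Eng, the co-receptor endoglin, was at 1550.2, 1858.3 and 1811.2 and at 1562.5 and 1693.5. Kdr, the receptor for vascular endothelial growth factor, was at 344.3, 364.2 and 258.0 and at 336.9 and 255.1, and Egfl7, a secreted endothelial protein, at 253.9, 253.9 and 177.3 and at 174.0 and 331.4. Of the smooth muscle list, 10 of 10 measured, 4 genes (40%) had control array 3 and TNF-LTBR array 2 lowest, Acta2 and Tagln among them. Tagln was the 1 gene of that list with the gap (10%). Acta2 was at 7581.6, 8169.4 and 2082.0 and at 4156.4 and 2066.4. The smooth muscle cytoskeletal genes Smtn and Synpo2 did not share that order, at 2969.4, 1079.6 and 1577.0 and at 967.7 and 1505.9 for Smtn, and at 311.6, 320.3 and 200.3 and at 337.4 and 354.4 for Synpo2. The fibroblast list, 10 of 10 measured, had control array 3 and TNF-LTBR array 2 as its 2 highest arrays for 6 of 10 genes, against 18.9% of all genes. They were the 2 lowest for 2 of the 10 (20%), of which 1 had the gap (10%). Dcn, the matrix proteoglycan decorin, was at 1204.0, 3506.4 and 12584.9 and at 7815.4 and 13473.9. Pdgfrb, the receptor for platelet-derived growth factor, lay between 5386.3 and 12094.0, and the collagen transcript Col3a1 between 13229.2 and 18162.9.

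Genes of the interferon-gamma response, which can induce Ciita, were measured for 16 of 18 listed genes, and 12 passed the filter with 0 called in limma. The list had a median of 763.7, 492.2 and 1155 in control and of 834.2 and 1853 in TNF-LTBR. Control array 3 and TNF-LTBR array 2 were the 2 highest arrays for 8 of the 16, and the 2 lowest for 0. Ifngr1, a chain of the interferon-gamma receptor, was at 1476.2, 1231.2 and 4072.0 and at 1789.8 and 6001.6, with the 2 arrays highest that were lowest for Lyz2. Iigp1, an interferon-induced GTPase, was at 2165.8, 819.1 and 3274.4 and at 987.6 and 3256.6. Jak1, a kinase of that receptor, was at 4653.1, 4751.5 and 7046.4 and at 4286.0 and 5155.9, and Irgm1, another induced GTPase, at 3752.9, 2325.9 and 3079.7 and at 2229.0 and 3299.5, so the named genes did not share one order. The groups did not overlap for 2 of the 12 genes past the filter, Irf1 and Ifngr2, named with their values in view, both with TNF-LTBR above, where 6.94% of the genes tested were.

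**Figure D4:**
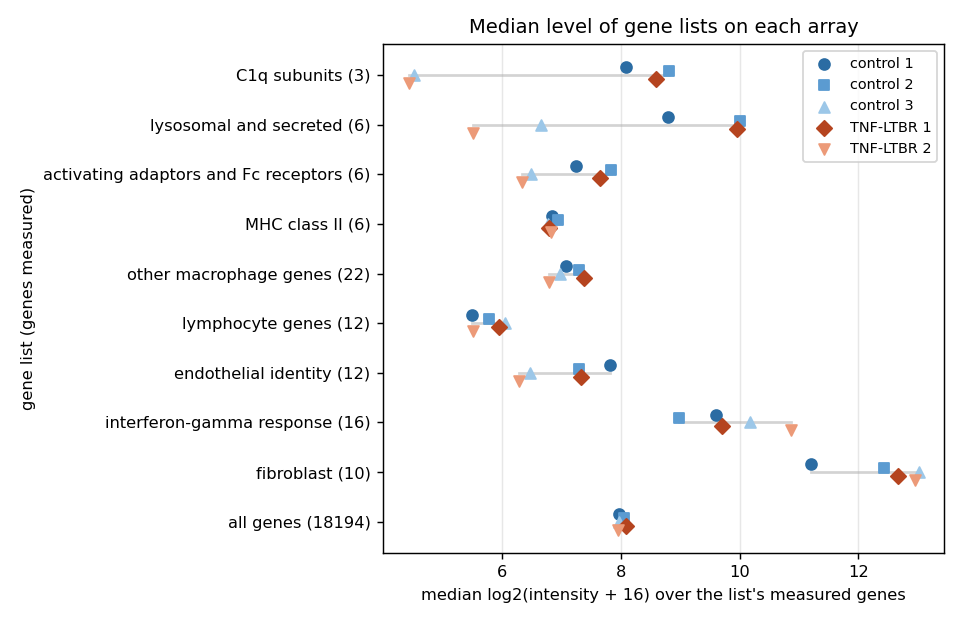
Median log2(intensity + 16) over the measured genes of each list (their number in brackets) on each array, 1 marker per array, with a grey line from the lowest to the highest array. The C1q median runs from 4.43 on TNF-LTBR 2 to 8.82 on control 2, that of MHC class II from 6.78 to 6.94, and the interferon-gamma response has its 2 highest medians on the arrays where C1q is lowest.

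The comparison of TNF-LTBR with control was made with limma across the 10916 genes past the brightness filter, the 60% with the highest mean over all arrays. Of the members, 14 passed and 21 did not. No member was called at an adjusted p under 0.05, and neither was any other gene (0.00%). At an unadjusted p under 0.05 there were 192 genes (1.76%) and 0 members. The smallest adjusted p was 0.999, and the fit without a filter called 0 of 18194 genes. An exact permutation test of 3 arrays against 2 could not give a two-sided p below 0.1. Of the 14 members, 6 were higher and 8 lower on average in TNF-LTBR, where 49.3% of the genes tested were higher, with a median difference of -0.11 against 0.00 over the genes tested. Leaving out control replicate 2 turned that median to 0.24, and leaving out TNF-LTBR replicate 2 turned it to 0.70. In 0 of the 14 did the groups separate, against 13.3% of the genes tested, 6.94% with TNF-LTBR above and 6.34% below.

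The size of the spread within groups set the limit of this comparison. Lyz2 lay at 9.84 ± 2.05 (SD, n = 3) in control and at 9.16 ± 3.95 (SD, n = 2) in TNF-LTBR on the log2 scale, a difference of -0.68 ± 1.96 (SE, limma adjusted p 0.999). Ctss differed by -1.10 ± 1.92 (SE), Wfdc17 by -0.50 ± 2.16 and C1qb by -0.77 ± 1.39, each with a limma adjusted p of 0.999. The difference took the opposite sign without TNF-LTBR replicate 2 for Lyz2 (2.11), Lyz1 (2.91), Wfdc17 (2.17), Ctss (1.62), C1qb (1.02), Tyrobp (0.78), Csf1r (0.52) and Cd68 (0.49). It also turned without control replicate 2 for Lyz2 (0.27), Lyz1 (0.09), Wfdc17 (0.63), Tyrobp (0.31), Csf1r (0.17) and Cd68 (0.02), and without control replicate 1 for Tyrobp (0.03). Cd14 differed by 0.00 ± 0.27 (SE) and took either sign. It was at -0.21 without control replicate 1, at -0.03 once TNF-LTBR replicate 1 was left out and at 0.20 without control replicate 2. The members Mpeg1, Cd53, Laptm5 and Fcgr2b kept their sign in the fits that each left out 1 array. In those fits Cd53 differed by 0.27 to 0.88, Laptm5 by 0.13 to 0.62 and Fcgr2b by 0.14 to 0.56. None of these differences passed the threshold, which does not show that the groups were alike.

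**Figure D5:**
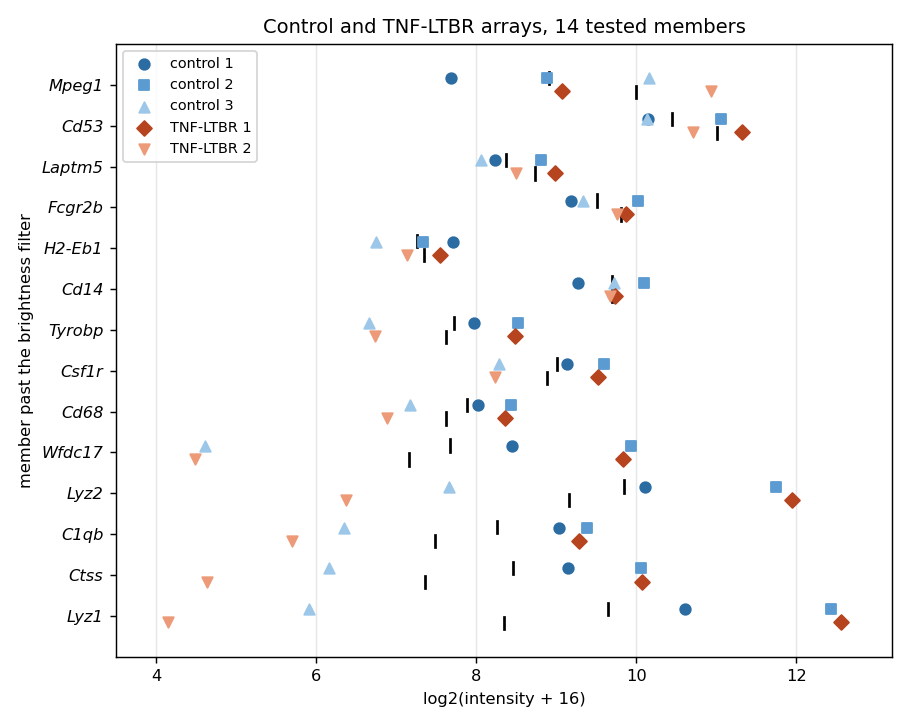
Log2(intensity + 16) of the 14 tested members on each control array (blue, upper row of a gene) and each TNF-LTBR array (red, lower row), with black bars for the group means. The groups overlap in every gene, and for Lyz2 the TNF-LTBR points at 66.5 and 3933.6 in intensity enclose all controls.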

How the data were processed

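Expression was measured on 5 one-colour arrays. The deposited values are intensities, 1 per probe set, on a linear scale; GCOS 1.4 is named per the submitters' processing notes, and no label names the summarising algorithm. The trimmed mean was 499.3 to 499.9 on every array, so the deposited arrays were already scaled, and their medians differed by a ratio of at most 1.10. Values were therefore used as deposited, as log2(intensity + 16). Among 45101 probe sets, the annotation gave several symbols to 932, none to 9211 and exactly 1 to 34958. The groups were tested with limma 3.58.1 under R 4.3.3 (lmFit, eBayes with trend, Benjamini-Hochberg, two-sided, threshold 0.05, 3 residual degrees of freedom), over the 60% of genes with the highest mean (at least 7.17). The scripts were tested on simulated data. Suffixes _x_at, _s_at, _a_at and _f_at were taken as shared sequence. The number of arrays limits the precision.

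All members are named, and from each further list the 4 genes with the highest mean, plus cell type markers and genes said to be chosen later. The members and lists were chosen with earlier results of these data known. Alternatives were pseudocounts 1 and 64, no filter, a filter keeping 40%, quantile normalization, median centring, every probe set, no shared-sequence probe sets, no trend, array weights, a replicate block, and each array left out in turn.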

Additional observations from a re-analysis of the deposited data

How the results depend on the processing

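Under all 16 alternatives, limma called 0 members and 0 genes. The median differences of the members, of the macrophage and leukocyte members and of the class II members were not stable in sign. They ran over -0.87 to 0.70, -0.97 to 0.78 and -0.18 to 0.30 when 1 array was left out. They moved by less than the spread between arrays within groups in the main fit, which was as wide as 1.45, 1.49 and 0.43. The class II median rested on H2-Eb1 alone, which the filter keeping 40% removed. Without a filter it was -0.11 over 6 members, against 0.08 in the main fit, a move wider than the spread of 0.07 in that setting. With the replicate number as a block, which is not said to pair cultures, 0 genes were called. The median difference of the members was then -0.55 and H2-Eb1 was at -0.18. Only control has a replicate 3, so the block gave the same differences as leaving out control replicate 3. The titles do not say that equal numbers mark a shared culture, so the numbers were not taken as pairs. Same-numbered arrays had deviations correlated at 0.13 and -0.80. With 2 TNF-LTBR arrays the deviations of 1 mirror those of the other, so these correlations cannot decide the pairing. H2-Eb1 was at -0.07 with array weights. Of the 129 single-gene differences under settings other than leaving out an array, the block included, 5 changed sign, as did 19 of the 70 with 1 array left out. Cd14 turned sign at -0.02 with median centring and at 0.00 with pseudocount 64 and quantile normalization.

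Leaving out 1 array gave ranges of -0.97 to 0.78 for Tyrobp, -0.77 to 0.52 for Csf1r, -0.21 to 0.20 for Cd14, -1.0 to 0.49 for Cd68, -5.51 to 2.91 for Lyz1, -3.47 to 2.11 for Lyz2, -3.81 to 1.62 for Ctss, -3.17 to 2.17 for Wfdc17, -2.56 to 1.02 for C1qb and -0.18 to 0.30 for H2-Eb1. Where it left 1 TNF-LTBR array, that array was assumed to vary like the controls. Signal limits the 21 members below the filter, whose values were not tested in the main comparison.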

Other observations

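Thy1 and Lum, chosen after their values were seen, showed the widest spread among the fibroblast genes and ran in opposite orders. Thy1, a surface glycoprotein of fibroblasts and other cells, was at 2583.1, 12215.1 and 154.6 in control and at 8871.2 and 127.9 in TNF-LTBR. Lum, which encodes the matrix proteoglycan lumican, was at 1145.4, 818.0 and 12967.3 and at 1103.8 and 12933.2. Over all 18194 genes, 238 had the gap of at least 1 on the log2 scale that 12 of the members showed, so members were 5.04% of the genes with that gap.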
